A study of Homo sapiens with 5 samples.

Results

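The 8 genes described here make and break down polyamines or control the first step of their synthesis. They are ODC1, AMD1, SRM, SMS, SAT1, OAZ1, OAZ2 and AZIN1, chosen by name for their roles, and all 8 were among the 10504 genes of the deposited abundance table. The cells were HEK293A, an adherent derivative of a human embryonic kidney line. The first group was given a control siRNA, labelled siCon, and the other group siIRE1a, an siRNA directed at IRE1α, which is the product of ERN1 and senses stress in the endoplasmic reticulum. Both groups went through starvation followed by fetal bovine serum (FBS), so no unstarved or serum-free cells were available for comparison. The libraries comprised 2 labelled siCon, 2 labelled siIRE1a and 1 multiplexed Ribo-seq library of both groups, and the 4 libraries of a single group had 28769136 to 49112701 sequenced clusters. Sample descriptions name a single assay for each group, but the tables hold values of RNA and of ribosome footprints (Ribo-seq, the mRNA fragments that ribosomes protect) for both. The siRNA label therefore set the group and the column name the assay.

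Polyamines (putrescine, spermidine and spermine) are small positively charged molecules that bind RNA and are needed for growth. ODC1 makes putrescine from ornithine, AMD1 supplies the aminopropyl donor, SRM and SMS add aminopropyl groups to give spermidine and spermine, and SAT1 acetylates polyamines for export or breakdown. High polyamine levels favour a shift of reading frame on antizyme mRNAs, which yields full-length antizyme. Antizyme binds ODC1 and carries it to the proteasome, and AZIN1, a relative of ODC1 without enzyme activity, binds antizyme in its place.

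The frameshift sites of both antizyme genes are shown because ribosomes have to shift there for full-length antizyme to be made, and footprints of these genes can come from the short first frame or from the full-length one. In capitals stand the serine codon TCC and the stop codon TGA that ends the first frame. The letters are from GENCODE release 29 transcripts, with positions in GRCh38; the submitters' processing notes name hg19, and no deposited value was tied to these positions. The windows lie in coding sequence at chr19:2271413-2271473 (plus strand) for OAZ1 and chr15:64691485-64691545 (minus strand) for OAZ2.
OAZ1: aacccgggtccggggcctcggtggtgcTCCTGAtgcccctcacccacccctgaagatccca
OAZ2: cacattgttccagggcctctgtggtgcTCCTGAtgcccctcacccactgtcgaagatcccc
The stop codon follows 68 codons in OAZ1 and 32 codons in OAZ2, and 49 of the 61 positions in the windows are identical. The tables give 1 footprint value per gene, so footprints before and after the stop codon cannot be told apart.

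Abundances were given as 1 value per gene, group and assay, in a unit that is not stated, so RNA and footprint differences below have no replicate error and no test. Values fell with coding length across 10188 genes (Spearman's rho −0.244 for siCon RNA and −0.507 for siCon footprints). Levels of different genes are set side by side on the assumption, not stated in the files, that values are per length. The members were listed by name with no threshold on a value, but with RNA, footprint and TE results of these data in view, the low RNA of AZIN1 among them, so their values and calls are a description. The siRNA target ERN1 had low values, 0.121 in siCon and 0.0736 in siIRE1a for RNA and 0.402 and 0.275 for footprints. Of 9 genes listed as markers of HEK293 cells, 6 were measured (NEFL, VIM, KRT8, KRT18, CDH2 and LIN28B), and NEFM, INA and PAX2 were not. Their siCon RNA values ran from 0.291 for LIN28B to 9.49 for VIM. Of 5 markers of blood, red cell and liver types only CD68 was measured, at 0.296 in siCon RNA, close to LIN28B.

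In siIRE1a cells, 6 of the 8 genes had less RNA than in siCon cells and all 8 had fewer footprints. The median difference of the 8 genes was −0.51 in RNA and −0.25 in footprints (log2 of siIRE1a over siCon), against −0.01 and −0.08 over all 10504 genes. RNA was lower by any amount in 51.2% of all genes and footprints in 67.9%. With each assay centred on its median or quantile normalized, footprints of all 8 members were still lower, where 50% (set by the centring itself) and 52.3% of all genes were. At least 1.5-fold lower RNA was found for 2 members, AZIN1 and ODC1, and for 6.7% of all genes before any scaling, and after quantile normalization for AZIN1 alone (5.72% of all genes). No member had RNA at least 1.5-fold higher (3.86% of all genes). No member had footprints at least 1.5-fold lower (0.904% of all genes) or 1.5-fold higher (0.847%), and ODC1 came nearest, at 1.48-fold lower. Among the 2662 genes whose mean footprint abundance lay in the range of the members (4.08 to 47.5), the median footprint difference was −0.12. Footprints were lower in 2091 of these 2662 genes, and in 1604 after centring. Before scaling and after centring, lower footprints were thus more common at this abundance than over all genes. After quantile normalization they were lower in 1429 of the 2662, a share close to the 52.3% of all genes.

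**Figure D1:**
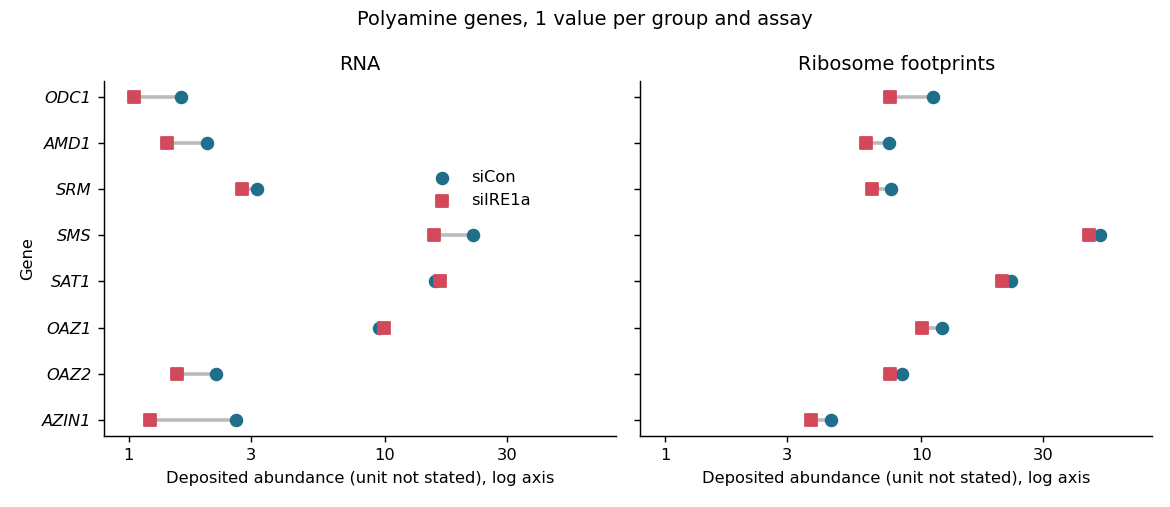
Deposited abundance (unit not stated, log axis) of the 8 genes in RNA (left) and ribosome footprints (right), with circles for siCon and squares for siIRE1a, 1 value each and no error bars because no replicate values were given. In footprints every square lies to the left of its circle, while in RNA the squares of SAT1 and OAZ1 lie slightly to the right.

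Among the enzymes of synthesis, ODC1 had the largest footprint difference. ODC1 footprints were 11.1 in siCon and 7.55 in siIRE1a cells, a log2 difference of −0.56 that ranked 115th from the lowest among the 10504 genes. ODC1 RNA was 1.60 and 1.05, which was 1.53-fold lower (log2 −0.61). RNA and footprints of ODC1 were thus lower by nearly the same factor, and its translational efficiency (TE, footprint over RNA abundance) stayed close, at 6.96 and 7.19. AMD1, whose mRNA carries a short upstream open reading frame that responds to polyamines, had RNA of 2.02 and 1.41 (log2 −0.53). Its footprints were 7.48 and 6.11 (log2 −0.29). The RNA of AMD1 therefore differed by more than its footprints did. With the trend of RNA difference on GC content described below removed, its RNA difference was −0.15, smaller than that in footprints.

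SMS, the spermine synthase, was the most abundant of the 8 genes in both assays in siCon cells. Its RNA was 22.0 in siCon and 15.5 in siIRE1a (log2 −0.51), whereas its footprints were 50.02 and 45.1 (log2 −0.15). SRM, the spermidine synthase, differed less in RNA, with 3.17 and 2.76 (log2 −0.20), and its footprints were 7.65 and 6.43 (log2 −0.25). Between these sequential enzymes, the SMS to SRM ratio of RNA values went from 6.95 to 5.63. That of footprints went from 6.54 to 7.005, so the ratio was lower in RNA and higher in footprints. With the trend on GC content described below removed, the RNA differences were nearly equal, at −0.46 for SMS and −0.44 for SRM. SAT1, the acetyltransferase, had the smallest footprint difference of the 8 genes, with 22.5 and 20.7 (log2 −0.12). Its RNA was 15.7 and 16.3 (log2 0.05).

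The antizymes differed from each other in RNA. OAZ1 RNA was 9.47 in siCon and 9.94 in siIRE1a cells (log2 0.07), whereas OAZ2 RNA was 2.18 and 1.54 (log2 −0.50). OAZ1 footprints were 12.0 and 10.1 (log2 −0.25). OAZ2 footprints were 8.45 and 7.57 (log2 −0.16). The OAZ2 to OAZ1 ratio of RNA values was therefore 0.231 in siCon and 0.155 in siIRE1a, while the ratio of footprints was 0.703 and 0.749.

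The antizyme inhibitor AZIN1 had the largest RNA difference of the 8 genes and the smallest footprint level. AZIN1 RNA was 2.62 in siCon and 1.21 in siIRE1a, which was 2.16-fold lower and ranked 24th from the lowest of all genes. At least 2-fold lower RNA was found for 0.466% of all genes. AZIN1 footprints were 4.45 and 3.70 (log2 −0.27). The large RNA difference was thus not matched in footprints, and the TE of AZIN1 in the deposited table was 1.70 in siCon and 3.05 in siIRE1a cells.

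**Figure D2:**
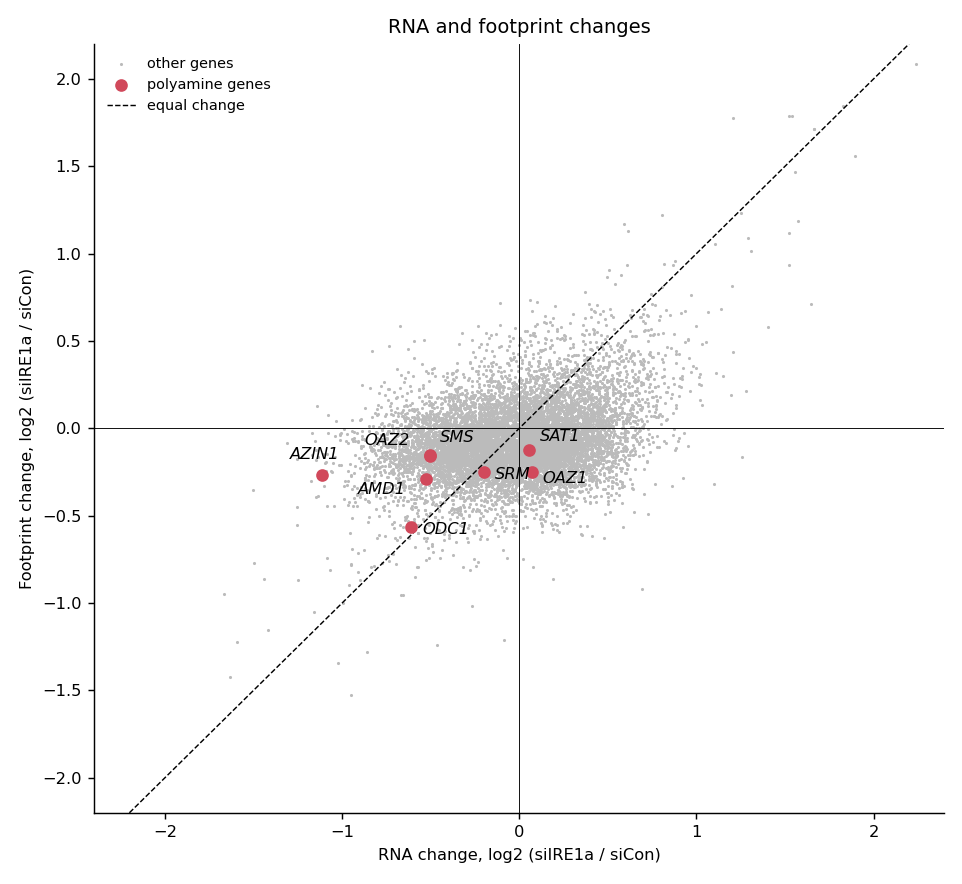
RNA change (x axis) against footprint change (y axis), both as log2 of siIRE1a over siCon, for the 8 polyamine genes (large points) and all other genes (small points), with a dashed line where both changes are equal. ODC1 lies near the dashed line at −0.61 and −0.56, and AZIN1 lies far above it at −1.11 and −0.27.

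The balance of enzyme, antizyme and antizyme inhibitor was compared as ratios within each group, in which the scale of a group cancels. A trend of RNA difference with the GC content of the transcript, described below, does not cancel. With that trend removed, the RNA difference was −0.91 for AZIN1, −0.70 for ODC1 and −0.09 for OAZ1. The ratios that follow are without this removal. ODC1 over OAZ1 was 0.927 in siCon and 0.747 in siIRE1a footprints (log2 difference −0.31), and 0.169 and 0.106 in RNA (−0.68). AZIN1 over OAZ1 was 0.370 and 0.366 in footprints (−0.02), and 0.277 and 0.122 in RNA (−1.18). The footprint ratio of AZIN1 to OAZ1 was thus close in both groups, while ODC1 was lower relative to OAZ1 in both assays. OAZ1 footprints can come from the short first frame or the full-length one, so these ratios do not give the proportion to full-length antizyme. ODC1 over AZIN1 was 2.50 and 2.04 in footprints but 0.611 and 0.866 in RNA, so this ratio was lower in footprints and higher in RNA. ODC1 over SAT1 footprints, synthesis against acetylation, was 0.495 in siCon and 0.365 in siIRE1a. These are single values per group, and none of the differences in ratio was tested.

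Within siCon cells, the members spanned TE values from 1.27 to 6.96, against a median of 4.70 over all genes. OAZ1 was lowest, at percentile 4.52 of all genes, followed by SAT1 with a TE of 1.43 (percentile 6.03) and AZIN1 with 1.70 (percentile 8.80). SMS (2.27) and SRM (2.41) lay at percentiles 16.4 and 18.4, and AMD1 (3.70) and OAZ2 (3.87) at 37.0 and 39.2. ODC1 stood above the median of all genes, at percentile 70.04. With no spread within a group, whether neighbours in this order differ could not be tested. In siIRE1a cells OAZ1 (1.017) and SAT1 (1.27) were again lowest and ODC1 highest, while AZIN1 had moved to percentile 28.8, past SMS (2.90) and SRM (2.33).

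The only comparison in the files that comes with a p-value is the authors' test of TE, deposited as a log2 change (siIRE1a over siCon) and an adjusted p-value for 8878 genes. Of these, 5.9% rose and 4.62% fell at a deposited adjusted p under 0.05. Among the 8 members 1 rose, AZIN1, and 0 fell. At an adjusted p under 0.1, where 8.7% of genes rose and 7.81% fell, SMS was called as well, and under 0.01, where 2.28% rose and 1.51% fell, AZIN1 was again the member called. In the authors' deposited table the TE of AZIN1 rose by 0.87 on the log2 scale (adjusted p = 8.36e-06), the 64th largest rise of the 8878 genes, with a back-calculated standard error of 0.154. Standard errors and 95% intervals here were back-calculated from the deposited adjusted p as if each p came from a two-sided test on a normal scale and was adjusted by the Benjamini-Hochberg method. The intervals are for each gene alone, without adjustment for the number of genes. An interval can thus leave out 0 where the adjusted p is not under 0.05. For ODC1 and SRM, whose back-calculated p was at least 0.5, the standard error is the median of genes of like RNA abundance.

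The other 7 members did not pass the test. In the authors' deposited table SMS had a TE change of 0.38 (adjusted p = 0.0531, interval 0.11 to 0.65). OAZ2 had 0.35 in the authors' deposited table (adjusted p = 0.175, interval 0.01 to 0.68) and AMD1 0.27 (adjusted p = 0.396, interval −0.13 to 0.66). These 3 genes had a lower RNA value and a smaller footprint difference, as AZIN1 did. With the trend of RNA difference on GC content described below removed, this held for SMS, OAZ2 and AZIN1 but not for AMD1. OAZ1 lay in the other direction in the authors' deposited table, at −0.34 (adjusted p = 0.294, interval −0.75 to 0.07). SAT1 was at −0.13 in the authors' deposited table (adjusted p = 0.687, interval −0.49 to 0.23). ODC1 was at 0.08 in the authors' deposited table (adjusted p = 0.781, interval −0.24 to 0.39) and SRM at −0.05 (adjusted p = 0.898, interval −0.35 to 0.25). The intervals of ODC1 and SRM do not show that their TE was the same in both groups, since they allow changes of 0.24 or more in log2 units either way.

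**Figure D3:**
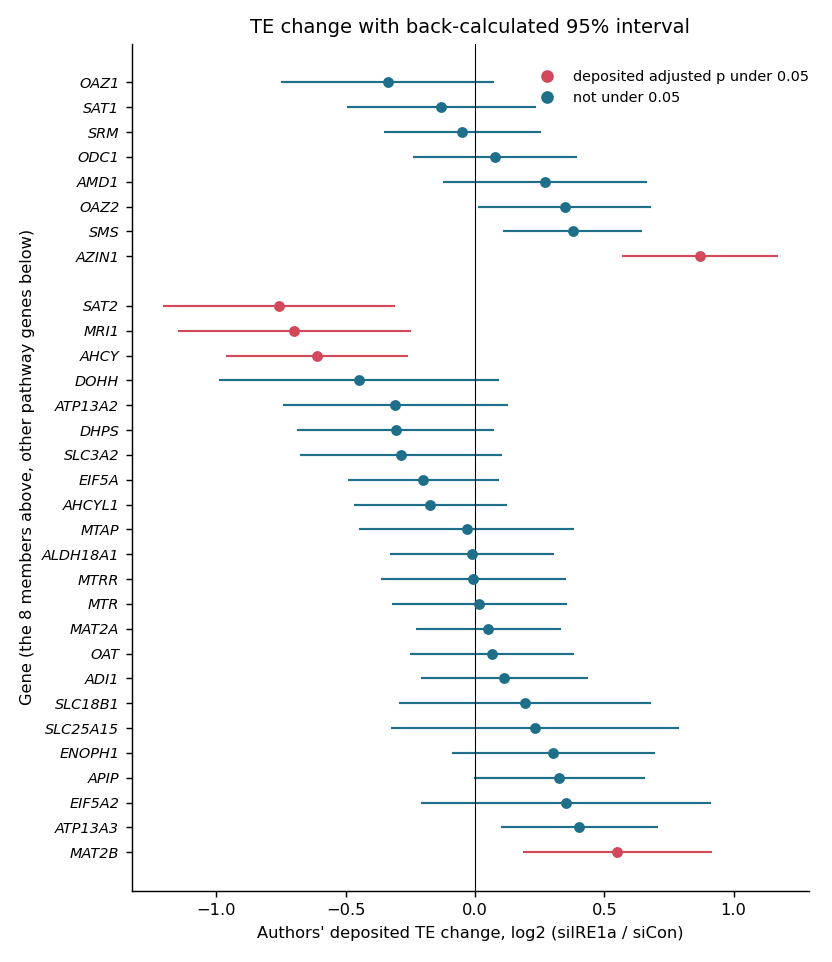
The authors' deposited log2 change in TE (siIRE1a over siCon, x axis) for the 8 members and for the 23 other pathway genes with a deposited adjusted p, with bars for the back-calculated 95% interval and the 5 genes at an adjusted p under 0.05 in a second colour. AZIN1 is at 0.87, and the called genes of the other lists are SAT2, MRI1 and AHCY on the negative side and MAT2B on the positive side. Where the back-calculated p was at least 0.5, the bar uses the median standard error of genes of like RNA abundance. The bars are not adjusted for the number of genes, so a bar can leave out 0 where the adjusted p is not under 0.05.

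Genes around the pathway were taken from lists of ornithine supply, catabolism, transport, hypusine synthesis and the methionine cycle, and 25 of them were measured, 23 with a deposited adjusted p. Of those 23, 1 rose and 3 fell, beside the 5.9% and 4.62% of all tested genes. In the methionine cycle and its salvage branch, which supply the aminopropyl donor and recycle the by-product of SRM and SMS, 1 of 11 genes rose and 2 fell. MAT2B, the regulatory subunit of S-adenosylmethionine synthesis, rose by 0.55 in TE in the authors' deposited table (adjusted p = 0.0365). AHCY, which hydrolyses S-adenosylhomocysteine, fell by 0.61 (adjusted p = 0.0137) and MRI1, an isomerase of the salvage branch, fell by 0.70 (adjusted p = 0.0303) in the authors' deposited table. The median footprint difference of these 11 genes was −0.20, and 10 were below 0. Over all genes the median was −0.08, and footprints were lower in 67.9%.

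Of 2 measured genes from the list of catabolism 1 had a deposited adjusted p, SAT2, a relative of SAT1. SAT2 TE fell by 0.76 in the authors' deposited table (adjusted p = 0.0178). The other, the spermine oxidase gene SMOX, had footprints of 0.368 in siCon and 0.407 in siIRE1a. None of the 4 transport genes, 4 hypusine genes or 3 tested ornithine supply genes passed the test at a deposited adjusted p under 0.05. The largest TE changes in those lists in the authors' deposited table were 0.40 for ATP13A3, a polyamine transporter (adjusted p = 0.0706), −0.45 for DOHH, the second enzyme of hypusine synthesis (adjusted p = 0.288), and −0.36 for ARG2, the mitochondrial arginase, which has no adjusted p. EIF5A, the translation factor that carries hypusine made from spermidine, had footprints of 128.8 and 113.1 and a TE change of −0.20 in the authors' deposited table (adjusted p = 0.392).

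RNA differences across all genes went with the GC content of the transcript, so the position of each member on that scale is given. Over all 10188 genes with a transcript, Spearman's rho between GC content and RNA difference was 0.626. Over the 8 members it was 0.571, which is a description of 8 genes measured in the same libraries. Over all 10188 genes rho was −0.042 for the footprint difference and −0.673 for the TE change in the authors' deposited table. The deposited TE calls at an adjusted p under 0.05 were sorted by GC content as well. In the lowest quintile of genes by GC content 355 rose and 0 fell, and in the top quintile 4 rose and 165 fell. AMD1 had the lowest GC content, 38.0%, in the lowest quintile of genes, where the median RNA difference was −0.37. AZIN1 had 42.3%, in the next quintile with a median of −0.18. ODC1 (51.2%) lay in the middle quintile with a median of 0.00, and OAZ2 (52.8%) in the quintile above it with 0.18. SRM had the highest GC content, 63.7%, in the top quintile with a median of 0.22. SMS (46.5%) was in the middle quintile, OAZ1 (54.0%) in that of OAZ2 and SAT1 (43.8%) in that of AZIN1. SAT1 lay above the median of its quintile and the other 7 members below theirs, AMD1 (−0.53) and OAZ1 (0.07) by the least.

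With a polynomial trend of RNA difference on GC content removed, 3 members were at least 1.5-fold lower, AZIN1 (−0.91), ODC1 (−0.70) and OAZ2 (−0.64), beside 2.35% of all genes. AMD1 went to −0.15 and OAZ1 to −0.09. With the same kind of trend removed from the TE change in the authors' deposited table, and p recomputed over all genes from the back-calculated standard errors, AZIN1 was at 0.70 (adjusted p = 0.00174) and was the only member that passed, while the direction of AMD1 (−0.085, adjusted p = 0.957) and SRM (0.26, adjusted p = 0.602) turned, beside 0.824% of genes that rose and 0.418% that fell. The 4 called genes of the other lists did not pass after that removal, with adjusted p between 0.367 and 0.644.

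**Figure D4:**
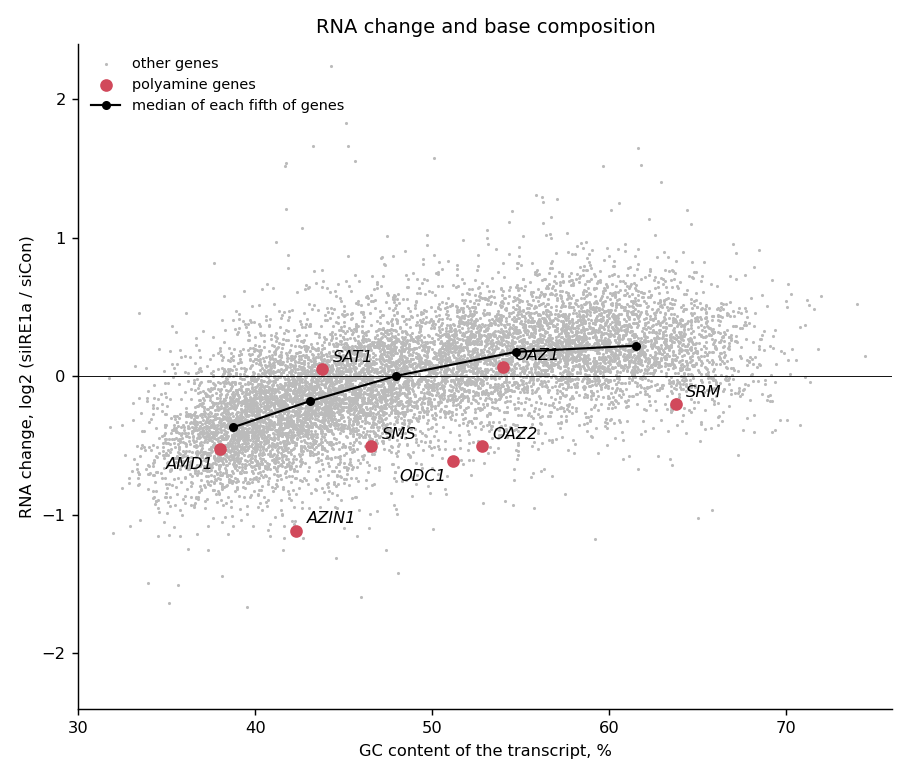
RNA change as log2 of siIRE1a over siCon (y axis) against the GC content of the transcript in percent (x axis) for the 8 polyamine genes and all other genes, with a black line through the median of each quintile of genes by GC content. SAT1 (0.05) lies above the line, and AZIN1 (−1.11), ODC1 (−0.61), OAZ2 (−0.50), SMS (−0.51) and SRM (−0.20) lie well below it.

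Features of the transcripts were counted in 1 GENCODE transcript per gene. The members were chosen as a circuit under translational control, so their upstream reading frames are not independent of that choice. An ATG upstream of the coding sequence was found in 6 of the 8 members, all but SRM and OAZ1, and in 51.8% of the genes with a transcript. AMD1 had 1 upstream reading frame that closes before the coding sequence, of 6 codons, ODC1 had 2, of 8 and 10 codons, and AZIN1 had 6, the longest of 112 codons. OAZ2 had 2, of 39 and 37 codons, and SAT1 had 1, of 4 codons. Among these 5 genes the siCon TE ran from 1.43 for SAT1 to 6.96 for ODC1. CTGCAG, the core letters of sites that IRE1α is known to cleave in stem-loops, was present in 6 members, all but AMD1 and SMS, and in 85.6% of genes, with no account taken of stem-loops.

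The 3′ UTR of ODC1 holds a site that is shown because genes with the same letters had lower footprints in these data. GGACCTA and GACCTAA were picked from a scan of the same footprint values for the 7-mers with the lowest changes, so this is not independent evidence. ODC1 was the only member with GGACCTA, and the letters are in capitals in its 3′ UTR, on chromosome 2, starting at base 562 of 756.
ODC1: tctggtggtgGGACCTActtaagtctg
AZIN1 was the only member with GACCTAA, and the other 6 members had neither. Of all genes with a transcript, 4.54% had GGACCTA and 6.22% had GACCTAA in the 3′ UTR. The 463 genes with GGACCTA in the 3′ UTR had a median footprint difference of −0.16 and a median RNA difference of −0.18, against −0.08 and 0.00 for genes without it. The 634 genes with GACCTAA had −0.14 and −0.24, against −0.08 and 0.00 without it. Genes with these letters had a lower median GC content (46.0% and 43.0%) than all genes (47.9%), and with the GC trend removed their median RNA differences were −0.09 for each set. The part of these sites in the values of ODC1 and AZIN1 was not tested.

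Promoter windows from RefSeq (GRCh38.p14, 250 bases before to 50 after each start) were taken for 10 starts of 7 members. AZIN1 was left out of this search. They were searched on both strands for CACGTG, the E-box bound by MYC and MAX, for TGACGTCA, the cyclic AMP response element, and for TGACGTGG and the ER stress response element (ERSE), sites of the unfolded protein response. CACGTG was found in windows of ODC1 and SRM and in 7.26% of all 35116 windows. None of the other 3 motifs was found in the members' windows, and they were present in 1.85%, 0.729% and 0.0769% of all windows in the order named. The RNA differences were −0.61 for ODC1 and −0.20 for SRM, which have the E-box. They were −0.53 for AMD1, −0.51 for SMS, −0.50 for OAZ2, 0.05 for SAT1 and 0.07 for OAZ1, which have none in their windows. Whether RNA differences went with the E-box was not tested. The ODC1 window with both E-boxes (in capitals) is shown because ODC1 is the first enzyme of the pathway and a textbook MYC target. It belongs to the second of 2 ODC1 starts, at chr2:10447963-10448262 on the minus strand, and the E-boxes begin 29 bases before and 5 bases after the start.
ODC1: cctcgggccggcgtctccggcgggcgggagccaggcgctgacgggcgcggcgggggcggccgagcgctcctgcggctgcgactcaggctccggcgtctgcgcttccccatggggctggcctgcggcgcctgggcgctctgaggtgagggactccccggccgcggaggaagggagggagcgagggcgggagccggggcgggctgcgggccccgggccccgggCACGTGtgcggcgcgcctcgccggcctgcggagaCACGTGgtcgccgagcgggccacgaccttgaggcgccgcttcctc
A match to these letters is a description of the window and was not tied to binding in these cells.

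The genes most like ODC1, OAZ1 and AZIN1 were taken as the 3 with the smallest distance in RNA and footprint log2 difference among genes within 2-fold of the member's siCon RNA and footprint values, a likeness over 2 groups and 2 assays. For ODC1 these were PRC1 (RNA −0.51, footprints −0.55), RCC1 (−0.59 and −0.68) and MCL1 (−0.51 and −0.49), out of 1112 candidates. Of these candidates, 85 had an RNA difference and 11 a footprint difference as low as or lower than that of ODC1. For OAZ1 they were NDUFS8 (0.08 and −0.26), HMGA1 (0.01 and −0.30) and EIF4B (0.15 and −0.29), out of 53. Among these 53, the RNA difference was as low as or lower than that of OAZ1 in 43 and the footprint difference in 11. For AZIN1 they were RDH14 (−1.10 and −0.33), GTF3C6 (−1.09 and −0.20) and SEC23A (−1.17 and −0.15), out of 447 candidates. An RNA difference as low as or lower than that of AZIN1 was found in 2 of them, and such a footprint difference in 41.

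Of the 8 members, 4 have named pseudogenes in RefSeq (AMD1, SRM, SMS and OAZ1), and how reads shared with such copies were counted is not given in the sources used here.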

How the data were processed

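The submitters' processing notes name hg19 (GRCh37) and Bowtie 1.1.2. The authors deposited a table of footprint and RNA abundance per gene, in a unit that is not stated, with TE columns that equal the ratio of footprint to RNA abundance. A further table deposited by the authors gives each gene a log2 change of TE with its adjusted p-value. Its model, the counting of reads, the handling of the libraries and whether libraries came from separate cultures are not given in the sources used here, so those p-values may measure technical spread only. The sign of the deposited log2 change matched the ratio of the TE columns (siIRE1a over siCon) for all 934 genes called. How many reads stand behind a value is unknown, and no counting interval is given.

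The 10522 entries held 9 symbols that occur 2 times, and without them 10504 genes remained. No pseudocount was used. Transcript features came from 1 GENCODE release 29 coding transcript per gene (best APPRIS tag, then longest coding sequence), matched by symbol for 10188 genes (97.0%) and all 8 members. GC trends were polynomials of degree 3, and adjusted p-values after such a step used the back-calculated standard errors and Benjamini-Hochberg adjustment over all genes. The calculation was tested on simulated data. Python 3.11.15, numpy 2.4.6, pandas 2.3.3 and scipy 1.17.1 were used.

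Members, lists and the naming rule were all chosen with earlier results of these data known. The rule named all members and ERN1, in each other list the genes called by the authors or else the one with the largest TE change, and the 3 genes most like ODC1, OAZ1 and AZIN1. The cell type markers, SMOX and EIF5A were named after their values were seen. Alternatives were pseudocounts, a minimum abundance, median centring, quantile normalization, other thresholds and removal of the GC trend.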

Additional observations from a re-analysis of the deposited data

How the results depend on the processing

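No paired analysis was possible because the abundance table holds 1 value per group and assay and the comparison table holds no samples; for the same reason no library could be left out, and leaving out replicates was not run. The count of members with RNA at least 1.5-fold lower was 2, and became 1 with a pseudocount of 0.1, with a pseudocount of 1, after quantile normalization and at a 2-fold threshold. In the first 3 of these the log2 RNA difference of ODC1, at −0.57, −0.34 and −0.56, no longer reached 1.5-fold. All 8 members kept fewer footprints after median centring and after quantile normalization, where 50% and 52.3% of all genes did, but SAT1 and SMS were then at −0.01 and −0.03 with quantile normalization. The count of members called for TE was 1, and became 2 at an adjusted p under 0.1 and 2 after median centring, in both cases by SMS (adjusted p = 0.0335 after centring the changes in the authors' deposited table). The 4 calls among the other pathway genes became 0 at an adjusted p under 0.01 and 0 with the GC trend removed. The log2 difference of ODC1 over OAZ1 was −0.68 and that of AZIN1 over OAZ1 −1.18 in RNA in place of footprints, without removal of the GC trend. With the GC trend removed from the changes in the authors' deposited table, the TE direction turned for AMD1, from 0.27 to −0.085, and for SRM, from −0.05 to 0.26, neither called in either case; the RNA difference of OAZ1 turned from 0.07 to −0.09, and AZIN1 over OAZ1 from −0.02 to 0.01 with a pseudocount of 1. Depth behind the values is unknown, so no limit on small differences can be given.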
